A study of Homo sapiens with 6 samples.

Results

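Platelets answer to soluble agonists through a small set of surface receptors. Such receptors and close family members, 10 genes, were examined in HEL, a human erythroleukemia cell line with erythroid and megakaryocytic features. The set was fixed by gene name and comprised the protease-activated receptors F2R, F2RL1, F2RL2 and F2RL3, the nucleotide receptors P2RY1, P2RY12 and P2RX1, the prostanoid receptors TBXA2R and PTGIR, and the adrenergic receptor ADRA2A. P2RX1 is an ion channel kept for comparison, and the other 9 are G protein coupled receptors. All 10 were found among the 31999 genes of the deposited table.

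RNA was sequenced from HEL cells carrying a lentiviral control hairpin (shCtrl, 3 libraries) or a hairpin against TMIGD2 (shTMIGD2, 3 libraries). Transduced cells of both groups had been selected with puromycin, and RNA was enriched for poly(A). The methods list several TMIGD2 hairpins, and which of them gave these libraries is not given in the sources used here. For each gene, the level used here is the authors' mean log2 CPM, 1 value over all 6 libraries of both groups. CPM expresses the fragments of a gene relative to all those counted in a library, and each step of 1 on the log2 scale doubles it. The table gives no value per library, so no level below has a spread between replicates, and the depth of the libraries is unknown. The authors' own comparison of shTMIGD2 with shCtrl was not used, and the difference between the groups was not analysed here. A receptor that differed between the groups would therefore appear here only as its average. Without values per library the targeted gene could not be checked in each of them, and TMIGD2 had a mean of 4.08 log2 CPM over both groups.

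Thrombin, ADP, thromboxane and adrenaline activate platelets through receptors that couple to Gq, G12/13 or Gi proteins, whereas prostacyclin restrains them through Gs and cyclic AMP. Megakaryocytes, the parent cells of platelets, make these receptors before platelets are shed. HEL cells have long served as a source of megakaryocytic receptors, and the markers of both lineages were checked first. All 8 erythroid markers were at 1 CPM or more, from EPOR, the erythropoietin receptor, at 5.52 log2 CPM to TFRC, the transferrin receptor, at 11.1 log2 CPM. Of 7 megakaryocytic markers, 6 were at 1 CPM or more, with ITGA2B, the platelet integrin subunit CD41, highest at 10.5 log2 CPM, while VWF lay at -2.71 log2 CPM. TAL1, GATA2 and GFI1B, regulators shared by both lineages, ranged from 8.52 to 10.1 log2 CPM. Among markers of other cells, CD14 (-2.67), EPCAM (-2.57), COL1A1 (-0.80) and COL1A2 (-3.40) had mean log2 CPM values under 0. LYZ (4.40), KRT8 (2.04), CDH5 (0.31) and PECAM1 (7.24) had values above 0, and PECAM1 is also a platelet surface protein.

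The protease-activated receptors are shown by sequence first, because they carry their own agonist. A protease cuts the extracellular end of the receptor, and the new end, the tethered ligand, folds back to activate it. Each line gives the reference bases around the cut of 1 receptor, 5′ to 3′ on the coding strand of the main GENCODE transcript. Capitals mark the codons of the first 6 residues of the ligand, and lower case marks the 4 codons before the cut.
F2R: ttagatccccggTCATTTCTTCTCAGGAAC
F2RL1: tctaaaggaagaAGCCTTATTGGTAAGGTT
F2RL2: ttacccattaagACCTTTCGTGGAGCTCCC
F2RL3: cctgccccccgcGGCTACCCAGGCCAAGTC

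These stretches lie in exon 2 of each gene, at chr5:76732337-76732366 for F2R, chr5:76832704-76832733 for F2RL1, chr5:76618575-76618604 on the minus strand for F2RL2 and chr19:16889593-16889622 for F2RL3 (GRCh38). The ligand starts at residue 42 in F2R, 37 in F2RL1, 39 in F2RL2 and 48 in F2RL3. The codon before the cut encodes arginine in F2R, F2RL1 and F2RL3 and lysine in F2RL2. Along the whole protein the 4 receptors shared between 33.9% and 39.2% of aligned residues, the highest value being that of F2RL1 with F2RL2. Their main transcripts had at most 31 identical bases in a row, between F2RL1 and F2RL3.

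Of the thrombin and protease receptors, 3 were abundant and 1 was not. F2R, which encodes PAR1, the high-affinity thrombin receptor of human platelets, had the highest level of the set, at a mean of 7.58 log2 CPM (191 CPM). F2RL2, which encodes PAR3, a thrombin receptor known as a cofactor for PAR4 in mouse platelets, had a mean of 6.25 log2 CPM (76.3 CPM). F2RL3, which encodes PAR4, the second thrombin receptor of human platelets, had a mean of 5.97 log2 CPM (62.5 CPM). F2RL1, which encodes PAR2, a receptor for trypsin and mast cell tryptase, had a mean of only 0.79 log2 CPM (1.73 CPM). The first 3 levels were all far above the 1 CPM used below as a threshold, and that of F2RL1 was just above it.

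Between genes of different length, levels can be compared only per length. The mean CPM was therefore divided by the exon length of each gene in kb, counting every exonic base of the gene once. On this scale F2R had 48.0 CPM per kb, F2RL2 22.4, F2RL3 18.7 and F2RL1 0.591. Among the 22805 genes with a known length, the level per kb of F2R exceeded 96.2%, that of F2RL2 90.9%, that of F2RL3 89.1% and that of F2RL1 44.8%. F2R made up 53.5% of the summed CPM per kb of the 4 receptors, F2RL2 24.9%, F2RL3 20.9% and F2RL1 0.658%. The level per kb of F2R was thus 2.14 times that of F2RL2, 2.56 times that of F2RL3 and 81.3 times that of F2RL1. F2RL2 and F2RL3 differed by only 0.26 on the log2 per-kb scale. Without values per library, no test of these ratios was possible.

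The receptors for ADP had very different levels. P2RY1, the Gq-coupled ADP receptor that starts shape change, had a mean of 6.83 log2 CPM (114 CPM), and its level per kb exceeded that of 88.6% of genes. P2RY12, the Gi-coupled ADP receptor targeted by clopidogrel, had a mean of -3.18 log2 CPM (0.110 CPM), and its level per kb exceeded that of 14.5% of genes. This value lay 0.58 above the lowest value of the table, -3.76 log2 CPM, near which the size of a value says little, so no fold is given against P2RY12. P2RX1, the ATP-gated cation channel, had a mean of 4.09 log2 CPM (17.1 CPM). Per kb of exon, P2RY1 had 18.0 CPM and P2RX1 4.33 CPM, a ratio of 4.17. This ratio depended on the length used, from 3.11 with the longest transcript to 7.13 with the longest coding sequence.

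The prostanoid receptors of opposite effect on platelets were both present. PTGIR, the Gs-coupled prostacyclin receptor that inhibits platelets, had a mean of 5.36 log2 CPM (41.0 CPM). TBXA2R, the thromboxane receptor that activates them, had a mean of 3.96 log2 CPM (15.5 CPM). Per kb of exon, PTGIR had 11.6 CPM and TBXA2R 5.49 CPM, a ratio of 2.12, and with the longest transcript as the length the ratio was 3.36. ADRA2A, the alpha-2A adrenergic receptor through which adrenaline acts on platelets, had a mean of 4.35 log2 CPM (20.4 CPM) and 5.27 CPM per kb.

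**Figure D1:**
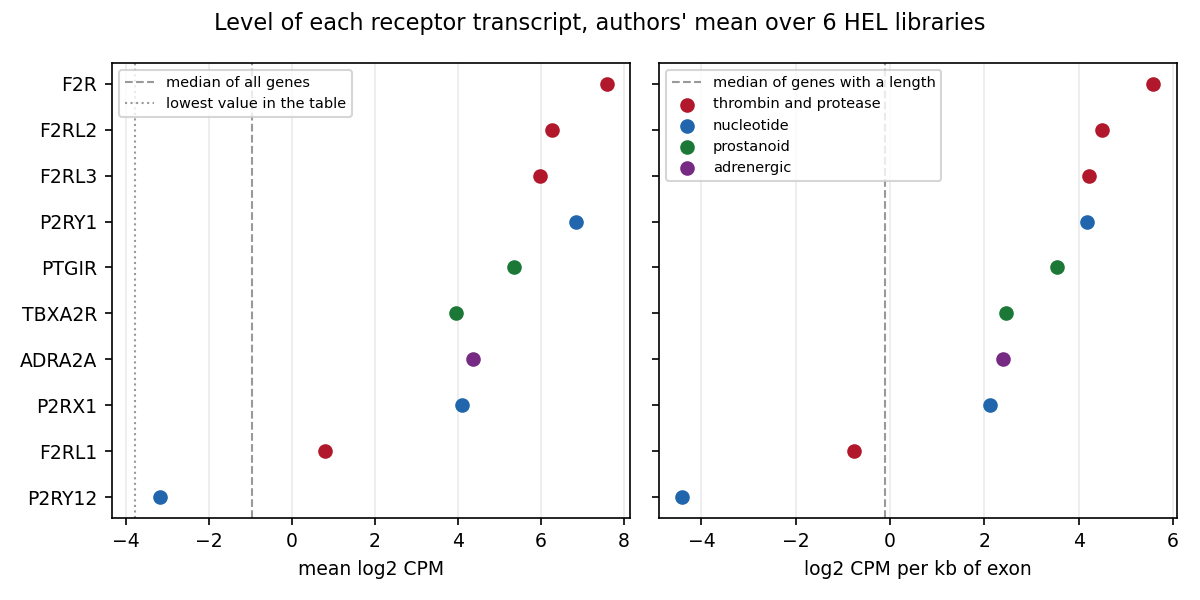
Levels of the 10 receptor transcripts in HEL cells (1 point per gene, ordered by level per kb), as the authors' mean log2 CPM over 6 libraries on the left and log2 CPM per kb of exon on the right, with dashed lines at the medians of the genes in the table (-0.97 log2 CPM) and of those with a length (-0.11 log2 CPM per kb) and a dotted line at the lowest value of the table. F2R is highest in both panels, and F2RL1 and P2RY12 are the lowest.

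Over the whole set, 9 of 10 receptors had a mean of 1 CPM or more, the exception being P2RY12. That level was reached by 43.8% of all genes listed and by 69.1% of the 16329 protein coding ones. These shares describe levels and carry no test, since the set was named for receptors of known platelet agonists and close family members. The order by CPM per kb was F2R, F2RL2, F2RL3, P2RY1, PTGIR, TBXA2R, ADRA2A, P2RX1, F2RL1 and P2RY12. Several neighbours in this order lay close together. F2RL3 and P2RY1 differed by 0.06 on the log2 per-kb scale, and so did TBXA2R and ADRA2A. ADRA2A and P2RX1 differed by 0.28. The wider steps were the 1.10 between F2R and F2RL2, the 1.08 between PTGIR and TBXA2R, the 2.87 between P2RX1 and F2RL1, and the 3.65 between F2RL1 and P2RY12, whose value lay near the lowest of the table. With the longest transcript or the longest coding sequence as the length, or with no length at all, F2R stayed in place 1, F2RL1 in place 9 and P2RY12 in place 10. The places in between were not stable: P2RY1 moved between 2 and 5, PTGIR between 3 and 5, and TBXA2R and ADRA2A between 6 and 8.

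Each receptor was then set beside the other receptors of its family, except that all 4 protease-activated receptors belong to the set. The relatives outside the set had a lower median of mean log2 CPM with no length. Single relatives could be high, and the prostanoid receptor PTGER3 (6.61 log2 CPM) exceeded all receptors of the set but F2R and P2RY1. Of the relatives, 9 of 24 (37.5%) were at 1 CPM or more. That level was reached by 43.8% of all genes listed and 69.1% of the protein coding ones. The median of the relatives was -1.59 log2 CPM, against 4.85 for the 10 receptors of the set and -0.97 for all genes. The receptors and lists were chosen with earlier results of these data known, so the contrast carries no test. Among P2Y receptors P2RY1 held 79.8% of the summed CPM per kb of the 7 with a level. The next was P2RY11, an ATP receptor, with 4.02 CPM per kb. The value of P2RY11 is uncertain, because 53.6% of its exonic bases also belong to the readthrough gene PPAN-P2RY11. In addition EIF3G, on the opposite strand at 8.68 log2 CPM, covers 5.42% of the exonic bases of P2RY11. P2RY14 (-3.05 log2 CPM) and P2RY10 (-3.76 log2 CPM) lay near the lowest value of the table, as P2RY12 did. Among P2X channels P2RX1 held 68.4% of the summed CPM per kb, and P2RX5 and P2RX4 followed with 0.673 and 0.643 CPM per kb.

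ADRA2A accounted for 87.8% of the summed CPM per kb of the 7 adrenergic receptors with a level. Its closest relatives were near the lowest value of the table, ADRA2B at -3.66 and ADRA2C at -3.57 log2 CPM. ADRB1, the beta-1 receptor, came next per kb with 0.375 CPM. In the prostanoid family the lead of PTGIR depended on the length used. PTGIR had 11.6 and PTGER3, the Gi-coupled prostaglandin E2 receptor, 9.49 CPM per kb of exon, a ratio of 1.23, but by mean log2 CPM with no length PTGER3 was ahead at 6.61 against 5.36. TBXA2R and PTGER1 followed with 5.49 and 3.57 CPM per kb. PTGER2, PTGER4 and PTGDR, which like PTGIR couple to Gs, lay between -3.66 and -3.57 log2 CPM. The lowest relatives per kb were P2RY6 (-5.83) among P2Y receptors, P2RX2 (-4.38) among P2X channels and PTGFR (-5.51) among prostanoid receptors, all in log2 CPM per kb. Their means were -2.40, -3.40 and -2.99 log2 CPM, and the order among such low values can depend on exon length.

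**Figure D2:**
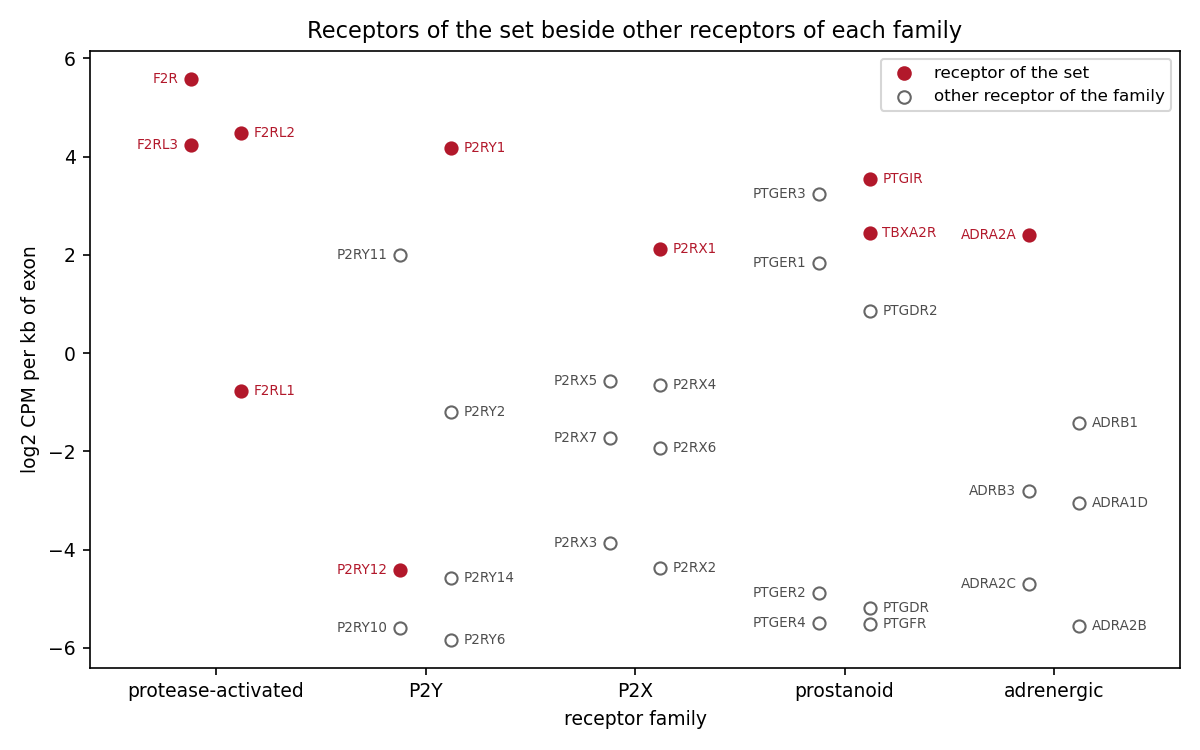
Level per kb of receptors by family, on the log2 CPM per kb scale, with filled points for the 10 receptors of the set and open points for the other receptors reported from their families. P2RY1, P2RX1 and ADRA2A stand apart from the next receptor of their family by 2.17, 2.69 and 3.81, while PTGIR and PTGER3 differ by 0.29 and P2RY12 lies among the low receptors.

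The proteins that carry the signals of these receptors were examined as lists chosen for their function. As a reference for the counts of this and the following lists, 43.8% of all genes listed and 69.1% of the protein coding ones reached 1 CPM. Of 11 G alpha subunits, 10 were at 1 CPM or more, with GNA14 the exception at -2.05 log2 CPM. GNAQ, the Gq subunit used by P2RY1 and TBXA2R, had 28.4 CPM per kb and held 74.8% of the summed level per kb of its class. GNA13, a G12/13 subunit used by thrombin and thromboxane receptors, had 24.4 CPM per kb, and GNAI2, the main Gi subunit of platelets, 57.9 CPM per kb, the most of the list. GNAZ, the Gi-class subunit through which adrenaline signals in platelets, had a mean of 2.47 log2 CPM (0.59 log2 CPM per kb). GNAS, the Gs subunit used by PTGIR, had a mean of 9.54 log2 CPM and 33.4 CPM per kb. Of 12 G beta and gamma subunits, 11 were at 1 CPM or more, with GNB1 highest at 6.17 and GNG10 lowest at -3.25 log2 CPM per kb.

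Downstream of Gq, 15 of 17 genes were at 1 CPM or more. PLCB2 and PLCB3, phospholipases that Gq activates, had means of 7.51 and 6.36 log2 CPM. RASGRP2, the calcium-dependent activator of Rap1 in platelets, had a mean of 6.14 log2 CPM, and RAP1B, the main platelet Rap1, 8.87 log2 CPM. The extremes of the list were both protein kinase C genes, with PRKCB highest at 5.10 and PRKCA lowest at -5.89 log2 CPM per kb. All 6 genes of the G12/13 effector list were at 1 CPM or more, from ARHGEF11 at 1.78 to RHOA at 7.17 log2 CPM per kb. Of 16 genes of the Gi, Gs and cyclic AMP pathway, 13 were at 1 CPM or more. PDE3A, the cyclic AMP phosphodiesterase of platelets, had a mean of 6.86 log2 CPM. ADCY5, an adenylyl cyclase, was lowest at -5.87 log2 CPM per kb, and VASP, a substrate of the cyclic nucleotide kinases, highest at 7.35 log2 CPM per kb.

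All 12 regulators of the receptors were at 1 CPM or more. RGS10, which shortens G protein signals, was highest of these at 5.42 and GRK5, a receptor kinase, lowest at -2.32 log2 CPM per kb. RGS18, a related regulator of platelets, had 5.07 and the arrestins ARRB2 and ARRB1 5.34 and 4.74 log2 CPM per kb. For the supply of agonist, 7 of 9 genes were at 1 CPM or more. PTGS1, the cyclooxygenase of platelets, had a mean of 7.92 log2 CPM and TBXAS1, thromboxane synthase, 5.10 log2 CPM. ABCC4, a nucleotide and eicosanoid transporter, was highest of the list at 6.48 and NT5E, an ectonucleotidase, lowest at -4.23 log2 CPM per kb, and SLC35D3, a dense granule gene, had a mean of -2.57 log2 CPM. PTGIS, prostacyclin synthase, was not analysed here.

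Other receptors of platelets formed a mixed list, with 14 of 18 (77.8%) at 1 CPM or more, beside 69.1% of protein coding genes. ITGA2B was highest at 8.03 log2 CPM per kb, and GP9 and GP1BA, subunits of the von Willebrand factor receptor, had means of 6.16 and 5.86 log2 CPM. SUCNR1, the succinate receptor, had 4.68 log2 CPM per kb, beside 4.17 for P2RY1. ADORA2A, an adenosine receptor, was lowest at -5.39 log2 CPM per kb, and CLEC1B, the podoplanin receptor, had -5.05 log2 CPM per kb, beside -4.40 for P2RY12. By mean log2 CPM, ADORA2A (-3.32), CLEC1B (-3.18) and P2RY12 lay near the lowest value of the table, where the size of a value says little.

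**Figure D3:**
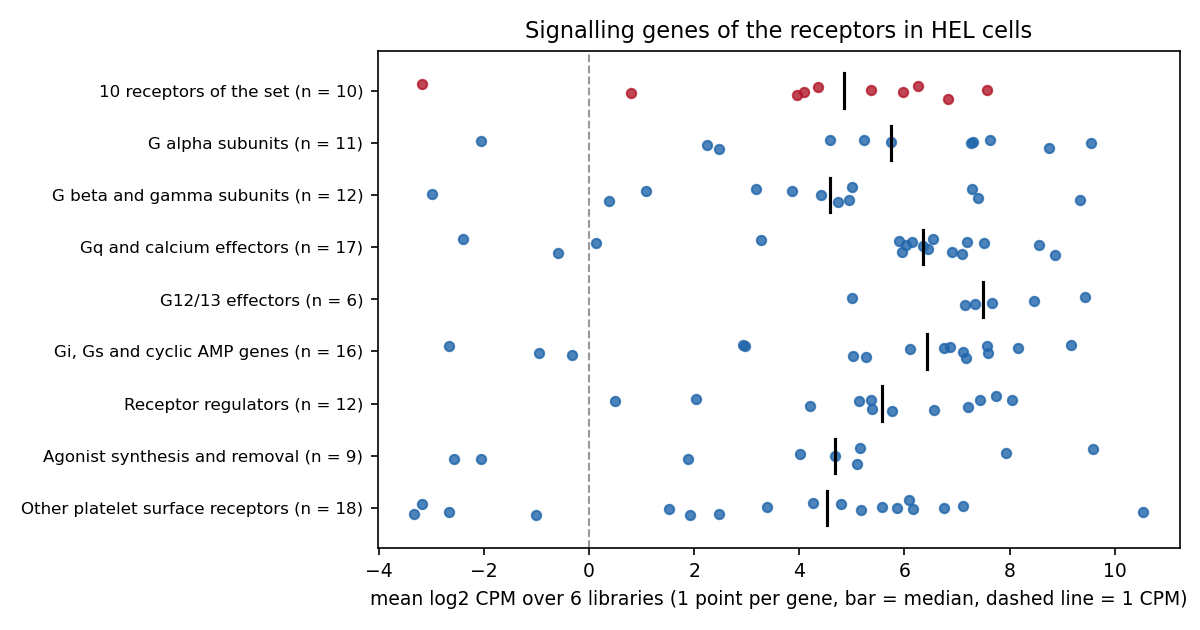
Mean log2 CPM over 6 libraries of the 10 receptors and of the genes in 8 lists of their signalling partners, with 1 point per gene, a bar at the median of each list and a dashed line at 1 CPM. The medians range from 4.53 log2 CPM for other platelet surface receptors to 7.50 log2 CPM for G12/13 effectors, with the receptors of the set at 4.85.

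By position, 3 of the protease-activated receptors lie in a row on chromosome 5. F2RL2 (chr5:76615482-76623413, minus strand) is followed after 92.7 kb by F2R (chr5:76716126-76735770, plus strand) and after a further 83.2 kb by F2RL1 (chr5:76818933-76835315, plus strand). The abundant F2R thus lay between F2RL2 and the low F2RL1. F2RL3 (chr19:16888999-16892606), PTGIR (chr19:46620468-46625089) and TBXA2R (chr19:3594507-3606875) are on chromosome 19. P2RY12 (chr3:151336843-151384753) and P2RY1 (chr3:152835131-152841439) share chromosome 3, and 1450.4 kb separate them. P2RX1 is at chr17:3896592-3916476 and ADRA2A at chr10:111077029-111080907. P2RY1 and ADRA2A consist of 1 exon in their main transcript, whereas P2RX1 has 12. The libraries were prepared with a directional workflow, but the strand setting of the counting is not given in the sources used here. Fragments of overlapping genes on opposite strands may therefore not have been told apart. MED12L, at 5.27 log2 CPM, covers 9.41% of the exonic bases of P2RY12, and IQGAP2, at 6.44 log2 CPM, covers 2.55% of those of F2RL2. A long noncoding RNA overlaps 10.4% of the exonic bases of F2RL1.

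Promoter sequences from RefSeq (GRCh38.p14), 250 bases before to 50 bases after each start, were matched for 7 of the 10 receptors, with a pair of starts for P2RY12. The bases just before the start are shown for the ADP receptors, whose levels per kb were the furthest apart of any 2 receptors of the set in 1 family. Capitals mark CpG dinucleotides, which were counted because many active promoters are rich in them.
P2RY1, chr3:152835071-152835130, plus strand: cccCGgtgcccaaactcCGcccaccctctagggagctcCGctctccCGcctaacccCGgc
P2RY12, chr3:151384754-151384813, minus strand: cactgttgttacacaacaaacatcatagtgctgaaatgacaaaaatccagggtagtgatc
P2RY12, chr3:151340823-151340882, minus strand: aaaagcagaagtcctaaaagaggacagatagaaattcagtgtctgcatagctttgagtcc

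These 60 bases held 5 CpG dinucleotides in P2RY1 and 0 at both starts of P2RY12. Over the full 300 bases P2RY1 had 32 and the starts of P2RY12 had 1 and 3, against a median of 14 over 35116 promoters. The other receptors did not follow the same order of level. F2RL1, the second lowest of the set, had 31 CpG dinucleotides, while F2RL2, the second highest per kb, had 5 and F2RL3 had 11. ADRA2A had 26 and TBXA2R 24. The SP1 motif GGGCGG, searched on both strands, was present in P2RY1, F2RL1, ADRA2A and TBXA2R and in 45.0% of all promoters. None of these 8 windows held the GATA motif AGATAA, the RUNX motif TGTGGT, the ETS motif CGGAAG or the cyclic AMP response element TGACGTCA, which were present in 10.3%, 13.1%, 19.5% and 1.85% of all promoters. These are matches of exact letters in a short window. Other spellings of each motif were not searched, and binding was not measured.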

How the data were processed

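Poly(A) RNA of HEL cells was sequenced after transduction with shCtrl or shTMIGD2, in 3 libraries each, grouped by their labels. The authors aligned reads with STAR 2.6.1b to hg38 and counted fragments per gene with HTSeq 0.6.1 on a refSeq annotation. The authors' deposited table holds their own edgeR comparison (log2 fold change, F statistic, p-value and adjusted p-value), which was not used, and a mean log2 CPM per gene over the libraries. Its linear values summed to 1002514 over 31999 genes. The prior count, normalization and filter behind it, and the depth of each library, are not given in the sources used here. The planned test of shTMIGD2 against shCtrl needs counts per library and was not run.

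Levels were ranked over all genes, and 1 CPM (log2 of 0) served as the threshold. Lengths, positions and transcripts came from GENCODE 44 (GRCh38), which gave a length for 71.3% of the genes by symbol. Because the authors counted on a refSeq annotation, the exons counted may differ from those that gave the lengths per kb. Proteins were translated from the main transcripts and aligned with Biopython 1.88. Python 3.11.15 and pandas 2.3.3 were used. The ranking code was run on simulated levels without noise, built with the same lengths, which checks only its arithmetic. Named genes were all 10 receptors, the genes of highest and lowest mean level in each list and family, and relatives that place a receptor in its family. The scale per kb for these extremes was chosen after their values were seen. By mean log2 CPM with no length the highest genes would be GNAS in place of GNAI2, RAP1B in place of PRKCB and ARRB1 in place of RGS10, and the lowest SLC35D3 in place of NT5E, P2RY10 of P2RY6 and PTGER4 of PTGFR. Some relatives and markers, still counted in the totals, are not reported here, and no lowest adrenergic relative is given. Further genes, such as GNAQ, GNA13, GNAZ, PLCB2, RASGRP2, PDE3A, RGS18, PTGS1 and SUCNR1, were named after their values were seen. The receptors and lists were chosen with earlier results of these data known. Receptors P2RY4, P2RY8, P2RY13, ADRA1A and ADRA1B, the markers CD3E, CD3D and MS4A1, and PTGIS and GP1BB were not analysed here.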

Additional observations from a re-analysis of the deposited data

How the results depend on the processing

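With a threshold of 0.5 CPM, 9 of 10 receptors were counted, and with 2 CPM 8, F2RL1 being the one lost. By mean log2 CPM, the median receptor exceeded 80.3% of all genes in the table, 63.1% of its protein coding genes and 55.0% of the genes at 1 CPM or more, since the low genes are then left out. Of the 10 places in the order per kb, 5 were the same with the longest transcript as the length, 4 with no length and 4 with the longest coding sequence. A receptor of the set was highest in 5 of 5 families by exon length and by the longest transcript, and in 4 with no length and 4 with the longest coding sequence, where PTGER3 led the prostanoid family. The protease-activated family held only receptors of the set, so its lead could not go to another receptor. Over the same lengths, the ratio of P2RY1 to P2RY11 ranged from 3.75 to 13.3, of P2RX1 to P2RX4 from 3.34 to 6.74 and of F2R to F2RL1 from 81.3 to 110.3. The coding sequence of GENCODE and the lengths tried for the families and ratios were chosen after seeing the data, and the planned RefSeq protein lengths were not used here.

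No paired analysis was possible because the level used has no value per library. Leaving out libraries, DESeq2, other normalizations and filters on counts were not run for the same reason. The depth is unknown. Of all genes, 8.13% lay within 0.1 of the lowest value, and P2RY12 lay 0.58 above it.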
